A study of Mus musculus with 9 samples.

Results

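Gene deserts were taken as autosomal windows of 100 kb on mm10 that hold no protein-coding gene, lie more than 250 kb from the nearest one on either side, and hold at least 100 CpGs. Of 24022 autosomal windows with enough CpGs, 3397 (14.1%) met the rule, together 339.7 Mb with 1803934 CpGs. The windows were placed with the RefSeq gene table of GRCm38.p6, and no methylation value was used to choose them. The windows they are set against are 3566 that lie wholly inside a protein-coding gene, called intragenic below.

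Gene deserts are long, AT-rich stretches between genes. Many of them replicate late and lie against the nuclear lamina, where chromatin is mostly inactive. Many flank genes of development or of neurons, and some hold enhancers that act on such a gene from far away. In mammalian DNA methylation sits mainly on the cytosine of CpG pairs. Most CpGs are methylated in somatic cells, except at active promoters, enhancers and CpG islands. Dnmt1 copies this methylation at each cell division, and Dnmt3a and Dnmt3b add it anew.

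DNA methylation was read by whole-genome bisulfite sequencing, in which unmethylated cytosines are converted and methylated ones are not. The groups are splenic bulk B cells of mice homozygous (HOM) for the Kmt2d change Ile5482Asn (A to T at position 98835228 of chromosome 15), of heterozygous mice (HET), and of wild-type mice (WT), all untreated. Kmt2d encodes a methyltransferase that places monomethylation on histone H3 lysine 4 at enhancers. The labels list 2 B cell samples per genotype, the deposited table holds 1 set of counts per genotype, and each set is called a library. No difference below therefore has a replicate check, and 95% intervals cover counting error only. They are likely too narrow even for that, because CpGs on 1 read are linked but were counted as independent. Both mutant columns, unlike the WT column, carry ENU in their names, a compound used to mutagenise mice. Strain, age and number of animals are not given in the sources used here. Blood depleted of B cells, also in the labels, was not analysed here.

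In deserts a CpG was covered on average by 7.44 reads in HOM, 10.4 in HET and 7.52 in WT, against 10.3, 13.8 and 9.83 in intragenic windows. All but 19 desert windows had at least 1000 CpG reads in each library. The cell type was checked at the CpG-richer ends of fixed marker genes, which need not hold the transcription start. The ends of Ebf1 and Pax5, transcription factors of the B lineage, were nearly unmethylated, at 0.556% and 4.77% in HOM, 0.281% and 4.52% in HET, and 1.004% and 9.42% in WT. Over all 10 B cell markers the median was 45.0% in HOM, 40.6% in HET and 50.7% in WT, and over 8 T cell markers 37.8%, 40.5% and 39.4%. The B cell median was thus not below the T cell median in any library, so these windows do not by themselves separate B cells from T cells. Medians of the NK, myeloid, and erythroid and platelet lists lay between 55.9% and 85.1%.

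The starts of 2 non-coding genes are printed as examples of a low and a high level in a desert. Neither is typical, since the median desert promoter of a long non-coding RNA held 2 CpGs. The pair of promoters below comes from the same 3.2 Mb desert on chromosome 1, between Dsel and Cntnap5a. They are shown because both are rich in CpGs, and the first is among the least methylated promoters found in deserts while the second is almost fully methylated. Each runs 5′ to 3′ on its own strand, from 250 bases before to 50 bases after the start of a long non-coding RNA (RefSeq, GRCm38.p6), with every CpG in capitals. Gm32810 lies at chr1:112416869-112417168 on the minus strand and Gm46244 at chr1:113145271-113145570 on the plus strand.
Gm32810: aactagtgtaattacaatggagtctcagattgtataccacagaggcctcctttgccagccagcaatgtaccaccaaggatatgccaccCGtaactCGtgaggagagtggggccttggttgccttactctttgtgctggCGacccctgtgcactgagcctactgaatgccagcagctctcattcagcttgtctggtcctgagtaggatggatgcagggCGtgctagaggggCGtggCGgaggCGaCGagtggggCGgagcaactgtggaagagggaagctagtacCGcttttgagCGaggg
Gm46244: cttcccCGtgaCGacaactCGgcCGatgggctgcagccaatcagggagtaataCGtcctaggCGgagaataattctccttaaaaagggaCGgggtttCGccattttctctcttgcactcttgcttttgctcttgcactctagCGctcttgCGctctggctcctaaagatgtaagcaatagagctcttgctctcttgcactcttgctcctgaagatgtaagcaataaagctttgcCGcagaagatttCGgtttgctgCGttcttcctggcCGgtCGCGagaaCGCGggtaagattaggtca

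The 11 CpGs of Gm32810 stood at 18.7% in HOM, 19.1% in HET and 19.4% in WT over 150, 173 and 93 CpG reads. The 18 CpGs of Gm46244 stood at 91.1% in HOM, 94.5% in HET and 92.7% in WT over 168, 308 and 109 CpG reads. Within Gm32810 the level was uneven. The 4th and 5th CpGs, at bases 218 and 231, had no methylated read in any library, and the first CpG, at base 89, had 8 methylated reads of 15 in HOM, 17 of 22 in HET and 7 of 10 in WT.

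MicroRNAs are the other annotated units with a sequence short enough to print. Of 919 autosomal hairpins in the RefSeq table (GRCm38.p6), 36 lie in deserts. Mature strands of the clusters described below are shown 5′ to 3′ to show which share a seed, the bases 2 to 8 that pair with targets, in capitals. A cluster on chromosome 9 (between Ubash3b and Gm40514) encodes miR-100, let-7a-2 and miR-125b, and a cluster on chromosome 16 (between Usp25 and Cxadr) encodes miR-99a, let-7c and miR-125b. On chromosome 7, between Gm51483 and the imprinted gene Ndn, lie 11 hairpins of the Mir344 family.
miR-100-5p: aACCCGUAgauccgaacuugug
miR-99a-5p: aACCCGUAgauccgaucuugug
miR-125b-5p: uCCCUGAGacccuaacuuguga
let-7c-5p: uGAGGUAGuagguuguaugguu
miR-344-5p: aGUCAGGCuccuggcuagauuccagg
miR-344g-5p: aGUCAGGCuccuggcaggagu

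miR-100-5p of chromosome 9 and miR-99a-5p of chromosome 16 share the seed ACCCGUA, and both loci encode miR-125b-5p. The seed GUCAGGC is shared by 6 mature names of the Mir344 family.

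Desert methylation was lower in HOM than in WT, and slightly lower in HET. The pooled level was 78.8% in HOM (95% Wilson interval 78.77 to 78.82), 81.3% in HET (81.28 to 81.32) and 81.9% in WT (81.85 to 81.89). HOM differed from WT by -3.08 points (95% Newcombe interval -3.11 to -3.05), HET from WT by -0.575 points (-0.602 to -0.548) and HOM from HET by -2.50 points (-2.53 to -2.48). Over single windows the level was 78.9 ± 3.59% in HOM, 81.3 ± 3.42% in HET and 81.8 ± 3.20% in WT (SD over 3397 windows, which are not replicates). HOM lay below WT in 3231 windows and above it in 166. HET lay below WT in 2132 and above it in 1265. HOM was the lowest of the libraries in 3075 windows, and the order HOM below HET below WT held in 1952 (57.5%). The single-window difference between HOM and WT was -2.90 ± 1.86 points (SD) and the median half-width of a window's 95% counting interval was 1.85 points. A 95% half-width is larger than a standard error, so the SD and the half-width are not like measures. Between a desert window and the next one the difference had a Pearson correlation of 0.466 over 2937 pairs, which share their libraries.

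**Figure D1:**
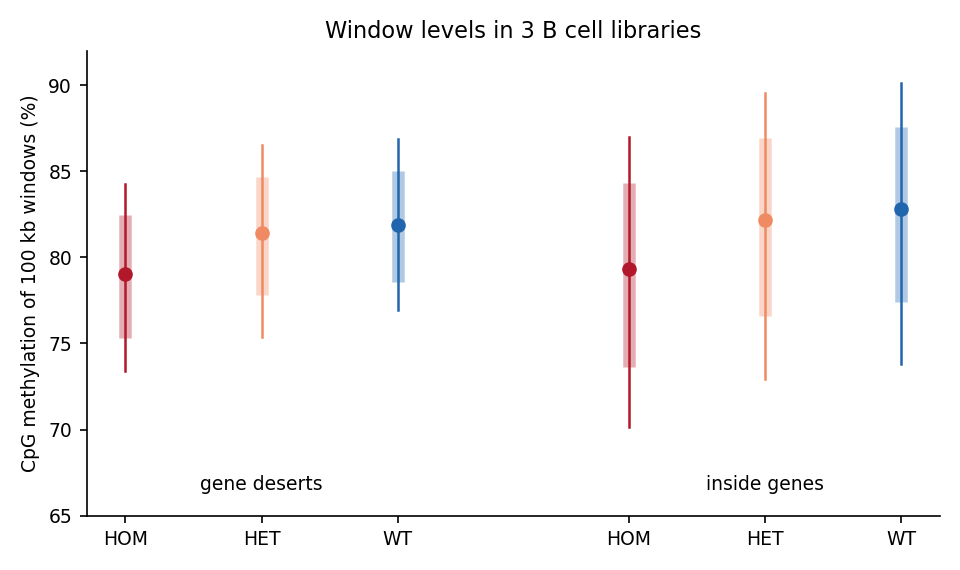
CpG methylation (%) of 100 kb windows in the HOM, HET and WT libraries, for gene deserts (left) and windows inside genes (right). Points are medians, thick bars the mean ± SD over windows, thin lines the 5th to 95th percentile. In deserts the medians are 79.0% in HOM, 81.4% in HET and 81.9% in WT, and the spread over windows is narrower than inside genes.

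The rule asks for windows inside genes as the comparison. Deserts and intragenic windows stood at nearly the same level, 78.8% against 78.6% in HOM, 81.3% against 81.5% in HET, and 81.9% against 82.2% in WT. The sign of this small gap differed between libraries. Deserts minus intragenic windows was 0.192 points in HOM (95% interval 0.166 to 0.219), -0.165 in HET (-0.186 to -0.143) and -0.291 in WT (-0.316 to -0.265). The HOM value turned to -0.582 points once CpGs in islands and within 4 kb of them were left out, and to -1.48 points over isolated CpGs. The WT value moved in the same direction, to -0.996 and -2.29 points. Deserts varied less among themselves, with an SD of 3.20 points in WT against 5.08 points in intragenic windows.

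The pooled deficit of HOM was smaller in deserts than inside genes, and for HET the measures were mixed. HOM minus WT was -3.08 points in deserts and -3.56 points in intragenic windows, a difference of 0.483 points (95% interval 0.446 to 0.519). HET minus WT was -0.575 and -0.701 points, a difference of 0.126 points (0.0926 to 0.159). Over all autosomal windows HOM minus WT was -3.70 points, and when the HOM level was scaled to equal WT over all windows, deserts stood 0.95 points above WT. The distance of deserts from intragenic windows was then 0.492 points, so intragenic windows also stood above WT. With a difference of at least 5 points as the mark of a called window, 334 of 3397 desert windows (9.83%) were called lower in HOM, against a background of 16.8% over all windows and 14.4% of intragenic windows. Called higher in HOM were 4 desert windows, against a background of 0.196%. In HET 77 desert windows (2.27%) were called lower, against a background of 1.98% and 1.74% of intragenic windows, and 27 (0.795%) were called higher, against 0.714%. The HET shares are near their backgrounds, and 10 of the 27 remained without antigen receptor windows. Between the mutants, 122 desert windows (3.59%) were called lower in HOM than in HET, against a background of 8.83%, and 6 (0.177%) were called higher, against 0.150%. With the HOM level scaled as above, 12 desert windows were called lower and 82 higher than WT. The share over all windows is not given under this scaling, so these counts do not set deserts apart.

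Read depth moved with this contrast. Relative to the library totals, deserts received 0.921 times as many CpG reads in HOM as in WT, and intragenic windows 0.978 times. Among windows where this ratio was within 5% of 1 (713 desert windows), the pooled desert deficit was -3.40 points. Its distance from that of intragenic windows was 0.156 points when pooled over reads. As window means matched on CpG density, a measure given below, the distance was 0.343 points, against 0.479 points without this limit on reads. In narrower classes, taken as means over windows, the distance was 0.581 points where HOM had 10 to 15% fewer reads, 0.509 at 5 to 10% fewer, 0.565 at 0 to 5% fewer and -0.0576 at 0 to 5% more, the last with 145 desert windows. By WT depth it was 0.558 points at 5 to 6 reads per CpG and 0.0229 at 10 to 11 reads. The part of read depth in the result was not tested.

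CpG density is the other property in which the classes differ. A desert window held a median of 502 CpGs, an intragenic window 711. Both classes had at least 20 windows in 8 density classes of 100 CpGs, from 300 to 1099 CpGs per window, which hold 3377 desert windows. The deficit of HOM in deserts was greater in denser windows, at -2.67 ± 1.89 points with 300 to 399 CpGs, -2.89 ± 1.84 with 500 to 599 and -3.25 ± 1.85 with 700 to 799 (SD over 304, 972 and 163 windows). In intragenic windows of the same classes it was -3.18, -3.36 and -3.69 points. Matched on density with the deserts' weights, HOM minus WT was 0.479 points closer to 0 in deserts than in intragenic windows, in 7 of 8 classes. The exception, 1000 to 1099 CpGs with 24 desert windows, stood at -0.308 points. Denser classes with too few windows to enter were also below 0. They stood at -0.547 points with 1100 to 1199 CpGs, -1.24 with 1200 to 1299 and -0.491 with 1300 to 1399, on 13, 4 and 1 desert windows. The sparse class of 200 to 299 CpGs, with 2 desert windows, stood at 8.59 points. For HET the matched distance was 0.267 points, above 0 in 6 of 8 classes. Matching on density widened the gap in level. Desert minus intragenic level was then -0.281 points in HOM, -0.497 points in HET and -0.763 points in WT, the last below 0 in 8 of 8 classes.

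**Figure D2:**
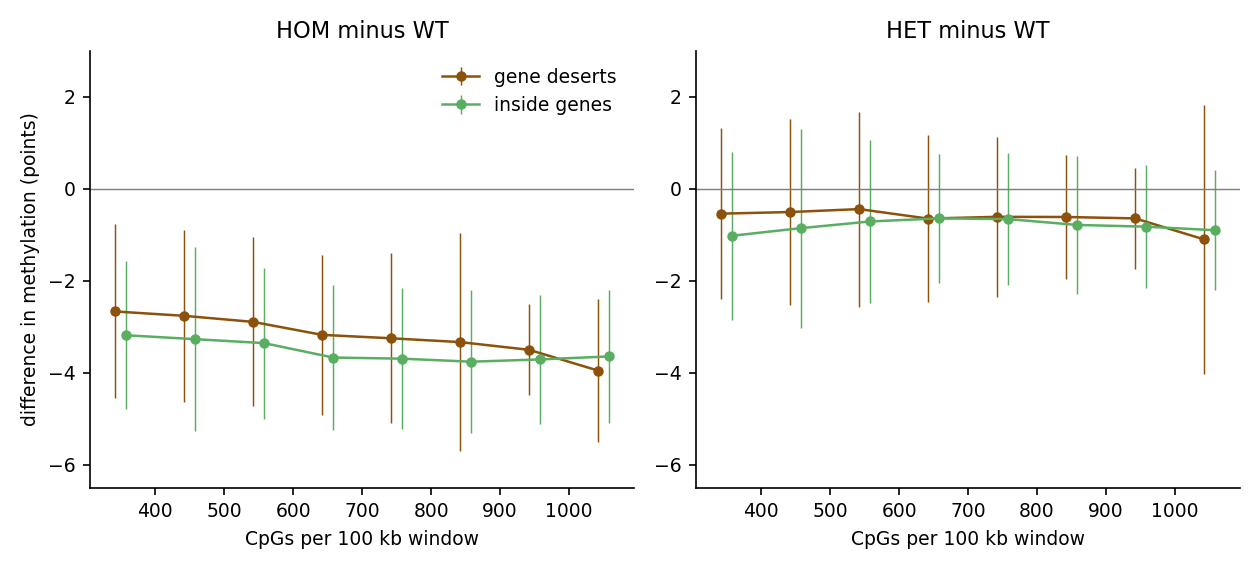
Difference from WT (points) in HOM (left) and HET (right) against the number of CpGs per 100 kb window, for gene deserts and windows inside genes. Points are means over windows and bars SDs over windows. In HOM the desert means lie above the intragenic means in every class but the last, and the SDs overlap.

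Local CpG crowding went with higher levels in deserts throughout, and inside genes with a low level in the most crowded class. In deserts the level was higher the more CpGs lay within 100 bp. CpGs with no neighbour stood at 76.5% in HOM, 79.1% in HET and 79.6% in WT, and those with 7 or more neighbours at 84.2%, 86.3% and 86.5%. Inside genes the level was also higher with 2 or 3 neighbours than with none, at 79.8% against 77.99% in HOM, 82.6% against 81.04% in HET and 83.3% against 81.9% in WT. The most crowded CpGs there, 6.54% of intragenic CpGs, stood at 64.3% in HOM, 67.4% in HET and 67.4% in WT. Crowded desert CpGs had a mean of 2.29 reads in HOM, 2.96 in HET and 2.17 in WT, against 8.38, 11.97 and 8.69 for isolated ones, so their level rests on less evidence per site. The HOM deficit was -3.11 points at isolated desert CpGs and -2.31 points at crowded ones. Inside genes it was -3.93 points at isolated CpGs and -3.10 points at crowded ones. The distance between deserts and genes was thus 0.815 points at isolated CpGs and 0.800 points at crowded ones, and it was smaller between them, at 0.600 with 1 neighbour, 0.292 with 2 or 3 and -0.0451 with 4 to 6.

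**Figure D3:**
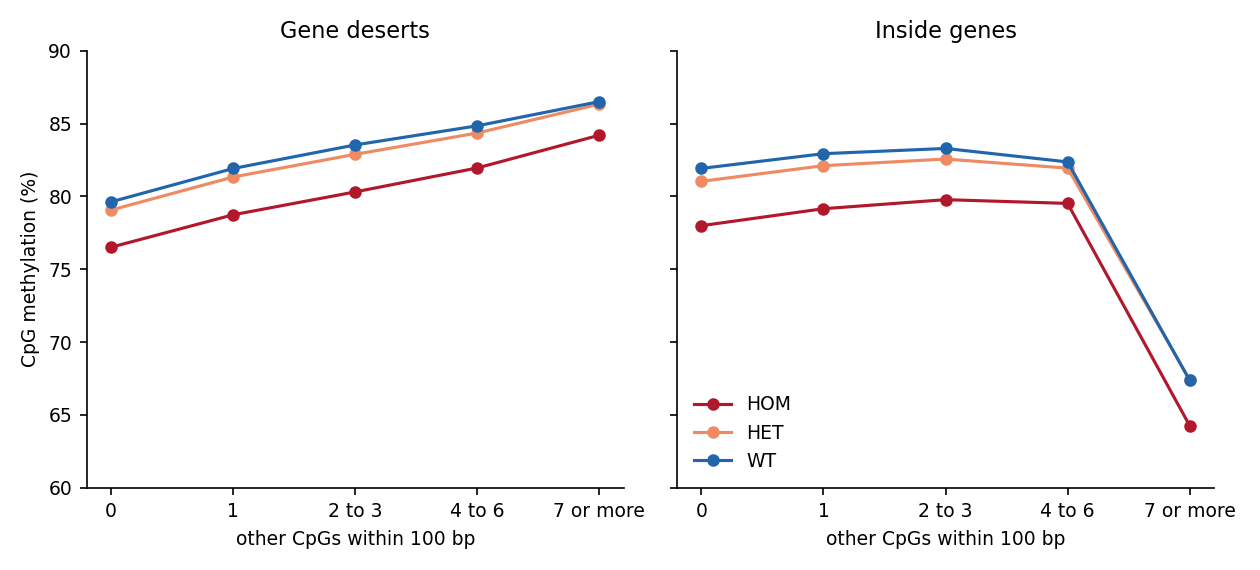
CpG methylation (%) in HOM, HET and WT against the number of other CpGs within 100 bp, for gene deserts (left) and windows inside genes (right). Points are pooled levels, whose counting intervals are smaller than the points. In deserts the level is highest at crowded CpGs, 84.2% in HOM and 86.5% in WT, and inside genes it is lowest there, 64.3% in HOM and 67.4% in WT.

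The deficit also varied with the distance from the nearest protein-coding gene. HOM minus WT was -3.32 points at 250 to 500 kb (1606 windows, 95% interval -3.36 to -3.28), -2.80 at 500 to 1000 kb (1205 windows, -2.85 to -2.75) and -2.70 beyond 1000 kb (586 windows, -2.78 to -2.62). Just inside the limit of the rule, at 250 to 300 kb, it was -3.38 points, and just outside, at 200 to 250 kb, -3.61 points. The WT level was 81.9% in each of these classes, and the HOM level was 78.6%, 79.1% and 79.2%. HET minus WT was -0.694, -0.408 and -0.478 points in the same order. CpG number and relative reads differed along the same axis. The mean number of CpGs per window was 572, 501 and 481, and the read share of HOM over WT 0.937, 0.906 and 0.890. Their part in the trend was not tested.

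**Figure D4:**
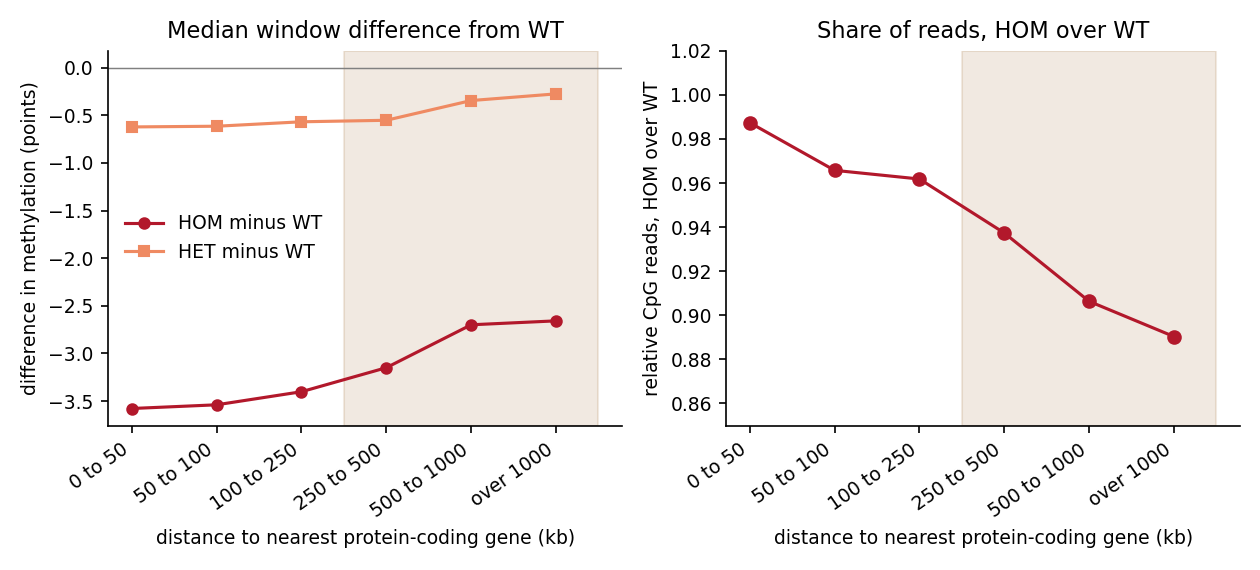
Left, the median over windows of the difference from WT (points) in HOM and HET; right, the share of CpG reads in HOM over that in WT, both against the distance to the nearest protein-coding gene (kb). The shaded classes are the deserts, in which the HOM median is -3.15 points at 250 to 500 kb and -2.66 points beyond 1000 kb, with read shares of 0.937 and 0.890.

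HOM was below WT in the deserts of all 19 autosomes, between -3.99 points on chromosome 7 and -2.35 points on chromosome 1. HET was below WT on 16 of 19, between -1.64 points on chromosome 7 and 0.231 points on chromosome 9. The distance of the HOM deficit from that of intragenic windows was above 0 on 17 of 19 autosomes. The exceptions were chromosome 7, at -0.287 points, and chromosome 11, at -0.0352 points. For HET the distance was above 0 on 12 of 19 autosomes and below 0 on 7, the lowest at -0.815 points on chromosome 11. Chromosomes share the libraries and are not replicates.

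Adjoining desert windows formed 440 runs, 73 of them of 1 window, and 115 runs of at least 10 windows held 2169 of the 3397 windows. Over these long runs HOM minus WT was -2.80 ± 1.09 points (SD over runs), with a median counting half-width of 0.455 points, and the interval lay below 0 in 113 of 115. For HET the interval lay below 0 in 52 runs and above 0 in 17.

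The longest runs differed widely in their deficit. Between Pcdh20 and Pcdh9, both protocadherin genes, 39 windows (chr14:88800001-92700000) stood at 75.7% in HOM, 77.1% in HET and 81.5% in WT. HOM minus WT was -5.81 points there (-6.15 to -5.47), HET minus WT -4.41 points (-4.72 to -4.10), with HOM below WT in 39 of 39 windows. The run of equal length between Celf4, an RNA-binding protein gene, and Pik3c3, a lipid kinase gene, stood at 77.2% in HOM, 79.8% in HET and 80.8% in WT, with HOM below WT in all 39 windows. Between Olfm4 and Pcdh17 (38 windows) HOM minus WT was -2.74 points and HET minus WT -0.278 points. Between Cntnap5b, of the contactin-associated family of neuronal membrane proteins, and Cdh20, a cadherin gene, it was -2.46 points in HOM and 0.123 points in HET (37 windows). Between Slc39a10, a zinc transporter gene, and Tmeff2 (34 windows) HOM minus WT was -1.45 points. Between Lrrc4c, a synaptic adhesion gene, and Iftap (34 windows) it was -2.53 points. Between Tenm3 and Aga, also 34 windows, it was -2.50 points in HOM and 0.0192 points in HET. These 7 runs, all of at least 3.4 Mb, thus spanned -5.81 to -1.45 points in HOM with WT levels of 80.5% to 82.3%.

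The run beside Pcdh9 belongs to a wider stretch. In 63 desert windows between 86 and 97 Mb of chromosome 14 the level was 76.4% in HOM, 77.8% in HET and 82.01% in WT, with HOM below WT in 63 windows and HET in 62. There HET minus WT was -4.18 points, against -0.522 points in the other 3334 desert windows. By megabase, genes included, HET minus WT was -0.0419 points at 85 to 86 Mb, -3.25 at 86 to 87, -3.44 at 96 to 97 and -0.982 at 97 to 98 Mb. A separate megabase at 99 to 100 Mb stood at -2.61 points. The stretch was outlined from these values, so its difference is a description. This stretch holds 39 of the 334 desert windows called lower in HOM and 21 of the 77 called lower in HET. Relative to WT its read share was 0.862 in HOM and 0.937 in HET, against 0.922 and 0.981 in the other desert windows, and the part of reads in the result was not tested.

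**Figure D5:**
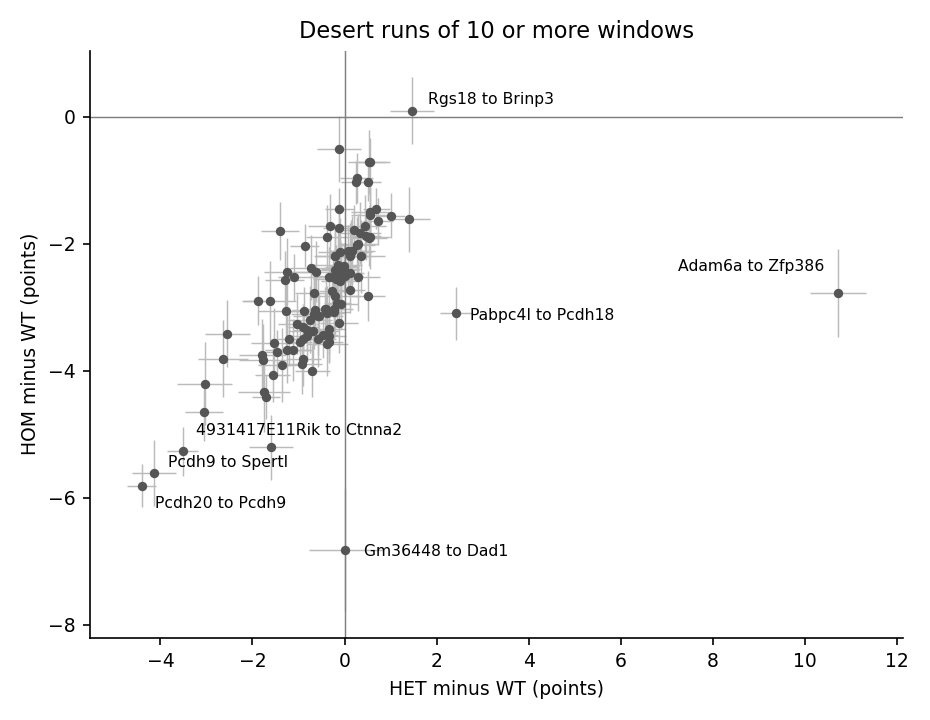
HOM minus WT (points) against HET minus WT (points) for the 115 desert runs of at least 10 windows, each a point with its 95% counting intervals, with 7 runs named by their flanking genes. Both axes use the same WT library, so the diagonal trend is no evidence of a shared change. The runs on either side of Pcdh9 lie lowest on the diagonal, the run between Adam6a and Zfp386 far to the right, and the run between Gm36448 and Dad1 below the rest.

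Runs at the other end were close to WT. Between Rgs18 and Brinp3 (chr1:145100001-146200000, 11 windows) the level was 85.8% in HOM, 87.2% in HET and 85.7% in WT, a difference of 0.0981 points in HOM (95% interval -0.427 to 0.622) and 1.47 points in HET (0.998 to 1.95). Between Csmd3 and Trps1, a GATA-type repressor gene, HOM stood -0.509 points from WT (-1.03 to 0.0108). Between Pabpc4l and Pcdh18, a protocadherin gene, the mutants parted, with 75.6% in HOM, 81.1% in HET and 78.7% in WT over 27 windows.

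Among the 3378 desert windows with at least 1000 CpG reads in each library, single windows reached larger differences, and the lowest had uneven reads. The lowest HOM minus WT was found between 4931417E11Rik and Ctnna2, an alpha-catenin gene (chr6:75300001-75400000), at 69.8% in HOM, 73.4% in HET and 83.2% in WT. In 9 of its 10 bins of 10 kb HOM lay below WT, by up to 29.3 points. Between 2610001J05Rik and Ppp1r3a, which encodes a glycogen-targeting phosphatase subunit (chr6:14300001-14400000), the level was 68.3% in HOM, 66.2% in HET and 79.7% in WT. This was also the lowest window in HET, at -13.4 points. Between Ptprd, a receptor phosphatase gene, and Tyrp1, a melanin synthesis gene (chr4:78500001-78600000), it was 75.8% in HOM, 76.3% in HET and 85.6% in WT. In these windows the mutants held fewer reads than WT relative to the totals, 0.698, 0.620 and 0.822 times as many in HOM and 0.733, 0.770 and 0.813 times in HET. The second lowest lies in the T cell receptor alpha locus and is described below.

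The window with the highest HOM minus WT lies between Khdrbs2, an RNA-binding protein gene, and Prim2, a DNA primase subunit gene (chr1:33100001-33200000). It stood at 81.4% in HOM, 70.6% in HET and 71.4% in WT, a difference of 10.003 points in HOM (95% interval 8.28 to 11.7) and -0.773 points in HET. HOM lay above WT in 7 of its 9 bins with enough reads. The next highest lay between Slc39a10 and Tmeff2 (5.34 points), between Stim2, a calcium sensor gene, and Pcdh7 (4.71 points), and between Impg1 and Htr1b, a serotonin receptor gene (3.63 points). In the last 3 the HET library also stood above WT, by 3.23, 5.26 and 4.76 points.

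Single CpGs that differed outright between libraries were about as rare in deserts as inside genes. With at least 5 reads in every library, 133 of 845640 desert CpGs were at or below 10% in 1 library, or in both mutants, and at or above 70% in the rest, against 287 of 1791149 intragenic CpGs. The 4 windows with the lowest HOM minus WT held 0 of them. Each had only 65 to 160 CpGs with enough reads, too few to expect one at this rate. Without these CpGs HOM minus WT over deserts was -3.08 points and HET minus WT -0.574 points. The 133 CpGs are too few to move a pooled level, so these values could hardly have differed from those with them.

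The V segments of antigen receptor genes are not annotated as protein-coding, so 57 windows of these loci count as deserts. In B cells the immunoglobulin loci are rearranged and active, which is not typical of gene deserts. In the immunoglobulin heavy chain locus, between Adam6a and Zfp386 (chr12:113800001-115700000, 19 windows), the level was 62.7% in HOM, 76.2% in HET and 65.5% in WT. HOM stood -2.77 points from WT (95% interval -3.46 to -2.08), below it in 15 of 19 windows, and HET 10.7 points above WT (10.1 to 11.3). Both windows with the highest HET minus WT lie here, at 14.4 and 13.98 points, and segment windows of this and other loci make up 17 of the 27 desert windows called higher in HET. In the kappa light chain locus (chr6:67800001-70500000, 27 windows) the level was 79.8% in HOM, 83.1% in HET and 82.6% in WT. In the T cell receptor alpha locus, between Gm36448 and Dad1 (chr14:52800001-53900000, 11 windows), it was 72.0% in HOM, 78.8% in HET and 78.8% in WT, and HOM minus WT was -12.8 points in the lowest of its windows with enough reads (chr14:53600001-53700000, at 65.8%, 76.2% and 78.6%). CpG coverage there was low, at 1.89 reads in HOM, 3.44 in HET and 2.06 in WT.

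Among the 8 T cell markers, the ends of the surface protein genes Cd3e, Cd3g and Cd8a stood higher in HET. They were at 55.1%, 53.6% and 54.6% in HOM, 77.0%, 72.0% and 76.3% in HET, and 52.5%, 58.1% and 64.7% in WT. Among the other 5 T cell markers HET did not stand above both, except for Thy1 at 13.4% in HOM, 16.1% in HET and 14.9% in WT. HET lay between HOM and WT at Cd3d, Lck and Cd28. At Cd4 HET was the lowest, at 9.38% in HOM, 6.97% in HET and 7.18% in WT. The part of cell makeup in the values of the receptor loci was not tested. Without the 57 windows desert levels were 78.8% in HOM, 81.3% in HET and 81.9% in WT, with HOM minus WT at -3.07 points and HET minus WT at -0.610 points.

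Weakly methylated windows were rare in deserts. Of the 5% of all autosomal windows with the lowest mean level, 3 of 1181 were deserts, although deserts make up 14.3% of windows with 1000 reads, and of the highest 5% 150 of 1181 (12.7%) were. The least methylated desert window lies between Fbxo15 and Neto1, a kainate receptor accessory gene, at 51.8% in HOM, 59.1% in HET and 59.3% in WT. Its last bin of 10 kb (chr18:85690001-85700000) stood at 20.9% in HOM, 24.6% in HET and 25.1% in WT and held 3053, 3285 and 2434 of the window's 6633, 8617 and 6267 CpG reads, while the other 9 bins lay between 73.3% and 84.8% in HOM. HOM minus WT was -7.51 points over this window, but the median over its bins was -2.49 points, with HOM below WT in 7 of 10. The next lies between F2rl3, a thrombin receptor gene, and Isx, an intestinal homeobox gene (chr8:73300001-73400000), at 53.3% in HOM, 59.1% in HET and 62.7% in WT. It holds an unmethylated CpG island of 138 CpGs (chr8:73352586-73353911) at 0.496% in HOM, 0.723% in HET and 0.843% in WT. The bin with this island held 3403 of the window's 8314 CpG reads in HOM and 2492 of 7066 in WT. HOM minus WT was -9.41 points over the window and -6.04 points as the median over its bins. Window levels are weighted by reads, and the part of read placement in these differences was not tested. The other least methylated windows are in the heavy chain locus and between Tenm3, an adhesion receptor gene, and Aga, a lysosomal hydrolase gene. The most methylated windows lay between Rgs18 and Brinp3, at 88.6% in HOM, 89.2% in HET and 89.8% in WT, and between Tox and Car8, at 87.1%, 89.3% and 90.9%.

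Among the densest and sparsest windows the levels were less extreme. The sparsest, between Chrm3, a muscarinic receptor gene, and Ryr2, a calcium channel gene, held 287 CpGs and stood at 78.2% in HOM, 81.4% in HET and 81.1% in WT. The densest, between Rtl1 and Dio3 in an imprinted domain of chromosome 12, held 1364 CpGs and stood at 79.1% in HOM, 82.4% in HET and 82.7% in WT. Between Rragc and Pou3f1, a neural POU factor gene, 1272 CpGs stood at 64.5% in HOM, 68.9% in HET and 71.8% in WT, and HOM minus WT was -7.29 points (95% interval -8.35 to -6.23). Between Cd83 and Jarid2, a Polycomb partner gene, 1254 CpGs stood at 79.8% in HOM, 83.2% in HET and 84.0% in WT.

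CpG islands, found from the CpG positions alone, were mostly methylated in deserts. Deserts held 1297 islands, of which 169 had at least 30 reads in every library. Of these 7 (4.14%) lay below 20% and 159 at or above 80%, against 244 of 444 (55.0%) below 20% in intragenic windows. The unread majority leaves the state of most desert islands unknown at this depth. Of 63595 tiles of 5 kb in deserts, 131 (0.206%) lay below 50%, against 1.07% in intragenic windows and 5.71% in the other windows. The desert tiles below 50% had medians of 41.3% in HOM, 42.5% in HET and 44.1% in WT. Among them were tiles in the neural long non-coding RNA gene Rmst, at 26.1% in HOM, 24.4% in HET and 28.5% in WT, and 1273 bp from Mir125b-2, at 24.97%, 31.8% and 29.6%.

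Where they could be measured, the starts of long non-coding RNA genes in deserts were seldom unmethylated. Deserts, 14.1% of windows, held 728 genes of long non-coding RNAs (5.87% of those on autosomes) and 833 pseudogenes (8.94%), and 1877 windows (55.3%) held no annotated gene of any kind. HOM minus WT was -3.44 points in the 773 windows with a long non-coding RNA (95% interval -3.49 to -3.38) and -2.93 points in windows with no gene (-2.97 to -2.89). Windows with such a gene averaged 594 CpGs and windows with no gene 510. Of 566 desert promoters of long non-coding RNAs, 197 had enough CpGs and reads. Elsewhere 6655 of 10745 such promoters did, and 15630 of 20084 protein-coding ones. Of the 197 desert promoters 9 (4.57%) lay below 20%, against 32.1% of those measured elsewhere and 78.5% of measured protein-coding promoters. The median of the 197 was 77.5% in HOM, 83.1% in HET and 82.4% in WT, with HOM below WT in 128 and above it in 69. The median desert promoter of this kind held 2 CpGs before the filter on reads, and the median protein-coding promoter 14.

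Around the microRNA hairpins (1000 bp on either side) the median of 31 with enough reads was 78.1% in HOM, 81.5% in HET and 86.3% in WT. HOM lay below WT at 21 of them and above it at 10. Pooled over the 100 kb desert windows that hold a microRNA gene, HOM minus WT was -3.51 points (95% interval -3.81 to -3.21). Mir125b-1, whose product is linked to blood stem cells and lymphoid growth, had the lowest level of the 31 in each library. Its 43 CpGs stood at 28.6% in HOM, 34.0% in HET and 40.1% in WT over 595, 702 and 471 CpG reads, and HOM minus WT was -11.6 points (95% interval -17.2 to -5.82). The neighbours in the same cluster were highly methylated, with Mir100 at 82.2% in HOM, 84.5% in HET and 87.0% in WT, and Mirlet7a-2 at 78.1%, 76.3% and 68.8%. On chromosome 16 Mir99a stood at 87.2%, 90.5% and 87.8%, and Mirlet7c-1 at 91.1%, 93.0% and 91.7% in HOM, HET and WT. The Mir344 hairpins lay between 55.3% and 86.8% in HOM where at least 20 CpG reads were found in every library. Mir344c showed the widest difference among them, at 55.3% in HOM, 67.4% in HET and 81.4% in WT over 85, 86 and 59 CpG reads.

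The genes that border deserts were counted on fixed lists chosen by symbol families. Of 792 protein-coding genes next to a run, 53 (6.69%) were adhesion, synapse and axon genes, against 1.04% of all protein-coding genes, and of the 213 genes next to a run of at least 10 windows 34 (16.0%) were. They include Cdh2 and Cdh6 to Cdh12 of the cadherins, Pcdh7, Pcdh9, Pcdh10, Pcdh17, Pcdh18 and Pcdh20 of the protocadherins, and the axon guidance receptors Robo1, Robo2 and Unc5d. Developmental transcription factors made up 25 of the 792 (3.16%), against 0.958% of all genes, among them Sox2, Sox9, Meis1, Pou3f2, Zic1 and the B cell factor Bcl11a. Gene length was not taken into account in these shares.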

How the data were processed

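Splenic B cell DNA was converted and sequenced as paired 150 bp reads, following the labels' protocols. Per the file headers, the deposited table gives a count of methylated reads and a total read count for each CpG and genotype. Trim Galore 0.2.8, Bismark, Bowtie2, BWA 0.7.13, Picard 1.91 and 2.3.0, and MethylDackel are named in the submitters' processing notes for mm10. The sources used here do not say which of them made these columns or whether samples were pooled. No duplicates or CpGs were removed here.

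A window's level is its methylated count over its total count, in Python 3.11.15 with pandas 2.3.3 and numpy 2.4.6. Intervals are 95% Wilson (levels) and Newcombe (differences) intervals for counting error only. They count each CpG read as independent, although CpGs on 1 read are linked, so they are likely too narrow even for counting error. Windows were called at 5 points. Named windows, the extremes of difference, level and CpG density, had at least 1000 CpG reads per library. Promoters needed 3 CpGs and 20 CpG reads per library, tiles 5 CpGs and 50 reads, and islands 6 CpGs per 100 bp over at least 200 bp. The calculations were tested on simulated data. Members and lists were chosen with earlier results of these data known. The X and Y chromosomes and 453 desert windows with too few CpGs were left out.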

Additional observations from a re-analysis of the deposited data

How the results depend on the processing

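No paired analysis was possible because the columns carry no replicate numbers, and with 1 library per genotype none could be left out. Depth limits single windows, whose median counting half-width for HOM minus WT was 1.85 points, and most desert islands had too few reads for a level. Of 249 values under an alternative, 109 stayed within their counting interval or 1.5 times the count, 135 moved and 5 reversed, and the cause was not tested. Intervals are narrow, so small shifts count as moved. HOM minus WT in deserts stayed below 0 except after scaling, and its distance from intragenic windows stayed above 0 in the settings run. That distance was below 0 in some single classes given above. It stood at -0.0576 points where HOM had 0 to 5% more reads and -0.0451 at CpGs with 4 to 6 neighbours. With 1000 to 1099 CpGs per window it was -0.308 points, and at 10 to 11 WT reads per CpG 0.0229 points. Alternatives were genes at least 100 or 500 kb away, a grid shifted by 50 kb, CpGs with at least 5 reads (well-read) or at most 30 reads (without over-read), means of CpG levels, isolated CpGs, CpGs outside islands and 4 kb around them, windows without chromosomes 4, 6 and 15, and levels scaled to be equal over all windows. Windows with 1000 reads per library, without antigen receptor windows, or with relative HOM reads within 5% of WT (equal relative reads) were added after seeing the data. Requiring in addition a Fisher p below 0.05, adjusted over all windows, left 332 of the 334 windows called lower in HOM. It is a test of these libraries and not of the genotypes, and it also counts linked CpGs as independent.

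The HOM desert level was 78.4% with genes at least 100 kb away, 79.1% with genes at least 500 kb away, 78.7% on the shifted grid, 79.3% without over-read CpGs, 79.8% as a mean of CpG levels and 76.5% at isolated CpGs. It was also 78.8% away from islands, 78.7% without the 3 chromosomes, 78.8% without antigen receptor windows and 78.2% at equal relative reads. Desert minus intragenic level in HOM was -0.224 points with genes at least 100 kb away, 0.488 with genes at least 500 kb away, 0.0284 on the shifted grid, 0.129 over well-read CpGs, 0.105 without over-read CpGs and 0.152 as a mean of CpG levels. It was also -1.48 at isolated CpGs, -0.582 away from islands, 0.152 without the 3 chromosomes, 0.240 without antigen receptor windows and -0.365 at equal relative reads. The HET desert level was 81.1% with genes at least 100 kb away, 81.4% with genes at least 500 kb away, 81.3% on the shifted grid, 81.4% over well-read CpGs, 81.8% without over-read CpGs and 82.2% as a mean of CpG levels. It was also 79.1% at isolated CpGs, 81.3% away from islands and 81.1% at equal relative reads. Desert minus intragenic level in HET was -0.404 points with genes at least 100 kb away, -0.0304 with genes at least 500 kb away, -0.266 on the shifted grid, -0.278 without over-read CpGs, -0.0992 as a mean of CpG levels and -1.97 at isolated CpGs. It was also -0.856 away from islands and -0.446 at equal relative reads. The WT desert level was 81.7% with genes at least 100 kb away, 81.8% on the shifted grid, 82.3% without over-read CpGs, 82.7% as a mean of CpG levels, 79.6% at isolated CpGs and 81.9% away from islands. It was also 81.8% without the 3 chromosomes, 81.9% without antigen receptor windows and 81.6% at equal relative reads. Desert minus intragenic level in WT was -0.451 points with genes at least 100 kb away, -0.389 on the shifted grid, -0.381 without over-read CpGs, -2.29 at isolated CpGs, -0.996 away from islands and -0.247 without antigen receptor windows. It was also -0.521 at equal relative reads. HOM minus WT in deserts was -3.33 points with genes at least 100 kb away, -2.77 with genes at least 500 kb away, -3.05 without over-read CpGs, -2.93 as a mean of CpG levels, -3.11 at isolated CpGs and -3.04 without the 3 chromosomes. It was also 0.95 after scaling and -3.40 at equal relative reads. The distance of HOM minus WT in deserts from that in intragenic windows was 0.227 points with genes at least 100 kb away, 0.790 with genes at least 500 kb away, 0.417 on the shifted grid, 0.404 over well-read CpGs, 0.439 as a mean of CpG levels and 0.815 at isolated CpGs. It was also 0.414 away from islands, 0.0312 in log-odds and 0.156 at equal relative reads. Matched on density, the distance for HOM minus WT was 0.352 points with genes at least 100 kb away, 0.629 with genes at least 500 kb away, 0.441 over well-read CpGs, 0.442 as a mean of CpG levels, 0.405 without the 3 chromosomes and 0.343 at equal relative reads. The counts of called windows below depend on the number of desert windows in each setting. That number was 5427 with genes at least 100 kb away, 1791 with genes at least 500 kb away and 713 at equal relative reads. It was 2839 without the 3 chromosomes, 3378 with 1000 reads, 3340 without antigen receptor windows and 3397 otherwise. Shares over all windows are not given for these settings, so a changed count is not a changed share. Desert windows called lower in HOM numbered 601 with genes at least 100 kb away, 161 with genes at least 500 kb away, 652 at isolated CpGs, 12 after scaling, 1620 at 3 points and 5 at 10 points. They numbered also 67 at equal relative reads. Desert windows called higher in HOM numbered 9 with genes at least 100 kb away, 2 with genes at least 500 kb away, 1 over well-read CpGs, 2 as a mean of CpG levels, 82 after scaling and 13 at 3 points. They numbered also 2 at 10 points, 2 in windows with 1000 reads and 1 at equal relative reads. HET minus WT in deserts was -0.654 points with genes at least 100 kb away, -0.429 with genes at least 500 kb away, -0.430 over well-read CpGs, -0.529 as a mean of CpG levels, -0.478 without the 3 chromosomes and -0.0404 after scaling. It was also -0.610 without antigen receptor windows. The distance of HET minus WT in deserts from that in intragenic windows was 0.0465 points with genes at least 100 kb away, 0.272 with genes at least 500 kb away, 0.188 as a mean of CpG levels, 0.325 at isolated CpGs, 0.00882 in log-odds and 0.0900 without antigen receptor windows. It was also 0.0750 at equal relative reads. Matched on density, the distance for HET minus WT was 0.201 points with genes at least 100 kb away, 0.401 with genes at least 500 kb away, 0.315 on the shifted grid, 0.197 over well-read CpGs, 0.320 at isolated CpGs and 0.173 without the 3 chromosomes. It was also 0.198 without antigen receptor windows and 0.215 at equal relative reads. Desert windows called lower in HET numbered 132 with genes at least 100 kb away, 45 with genes at least 500 kb away, 33 over well-read CpGs, 45 without the 3 chromosomes, 259 at 3 points and 3 at 10 points. They numbered also 9 at equal relative reads. Desert windows called higher in HET numbered 16 with genes at least 500 kb away, 14 over well-read CpGs, 44 at isolated CpGs, 66 at 3 points, 9 at 10 points and 10 without antigen receptor windows. They numbered also 8 at equal relative reads. Matched on density, the WT gap in level was -0.881 points with genes at least 100 kb away, -0.680 with genes at least 500 kb away, -0.662 on the shifted grid, -0.811 without over-read CpGs, -0.696 as a mean of CpG levels and -1.63 at isolated CpGs. It was also -0.928 away from islands, -0.730 without the 3 chromosomes, -0.736 in classes of 50 CpGs, -0.667 without antigen receptor windows and -1.26 at equal relative reads.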
